A study of Mus musculus with 13 samples.

Results

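Mouse pre-B cells carrying Ikaros-ERt2 were compared after 6 h and after 2 h of 4-hydroxytamoxifen (OHT). The comparison uses 6 of the 13 arrays in the series, 3 for each time, and covers every probe set that has 1 gene symbol, 21789 of 35556 on the array. They stand for 19938 genes, of which 11963 were bright enough to be tested. The cells are B3, an established pre-B line, and they were transduced with a retroviral construct for HA-tagged Ikaros joined to ERt2, a modified hormone-binding part of the estrogen receptor, followed by an IRES and GFP. Another 3 arrays hold vector-ERt2 cells, which are B3 cells with ERt2 and GFP but no Ikaros fusion, after 6 h of OHT. Total RNA from each sample was hybridised to an Affymetrix Mouse Gene 1.0 ST array. The titles call the arrays biological replicates, and nothing in the labels says whether they came from separate cultures or whether a line was a clone, so p-values measure only the spread between these samples. The title of vector replicate 1 gives the vector, but another of its labels gives the inducible Ikaros construct. Ikzf1 read 9.16 on that array and 9.25 and 9.39 on the other vector arrays. A vector sample at 2 h and an Ikaros-ERt2 sample without OHT are not analysed here, so the time since OHT was added and any other change between the collections cannot be told apart.

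Ikaros, the product of Ikzf1, is a zinc-finger protein that binds DNA and is needed for lymphocyte development. In pre-B cells it is known for silencing the surrogate light chain genes and for restraining growth. A protein fused to ERt2 is held inactive until OHT binds, so the fusion is already made when OHT is added and its level need not change. Ikzf1 read 13.39, 13.22 and 13.22 on the log2 scale at 2 h and 13.31, 13.22 and 13.25 at 6 h, 4.01 and 3.99 log2 units above the vector mean. The difference between the times was -0.02 ± 0.08 (standard error; limma, adjusted p = 0.954), and the arrays of the times overlapped. The probe set cannot tell the fusion transcript from the cells' own Ikzf1.

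Between 2 h and 6 h, the genes that rose included the glucose transporters Slc2a1 and Slc2a3, 7 of 35 tested low-oxygen targets, 2 of 30 cholesterol and fatty acid synthesis genes and Ebf1. Those that fell included 15 of 98 ribosome assembly genes, the surrogate light chain genes and the purine enzyme Pnp. Lists and members, here and below, were chosen with earlier results of these data known. Their shares beside all genes are therefore descriptive and not a test. In all, 108 genes were called at an adjusted p under 0.05 by limma, which is 0.903% of the genes tested. Of these, 45 were higher at 6 h (0.376%) and 63 were lower (0.527%). Most changes were small. Only 7 of the 108 reached 2-fold, 4 upward and 3 downward, and the smallest called changes were 0.31 and -0.35 log2 units. In each of the 108 genes the 3 arrays of one time lay apart from the 3 of the other. Non-overlap alone is common here, since 7.9% of all tested genes had every 6 h array above every 2 h array and 6.91% had every one below. The median change over all tested genes was 0.01. In RNA from whole cultures, fewer cells with a transcript and less of it per cell cannot be told apart.

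The calls rest on the spread estimated from all 9 arrays. A fit of only the 6 Ikaros-ERt2 arrays called 0 genes, with 1301 at an unadjusted p under 0.05 and a lowest adjusted p of 0.0587. The 108 genes had unadjusted p-values of at most 0.0031 in it. Leaving out 2 h replicates 1, 2 and 3 in turn gave 9, 44 and 15 calls. Leaving out 6 h replicates 1, 2 and 3 gave 26, 149 and 38, and vector replicates 1, 2 and 3 gave 32, 31 and 50. All 108 genes kept their direction in each of 18 alternatives. Leaving out an array could not reverse a direction, because the arrays of the times did not overlap in these genes. Nor could a change of filter or variance model, which leaves the difference of the means as it is. Each gene was called in 3 to 16 of the 18. Slc43a2, Gys1, Tbx19, Pnp, Enpp6, Endod1 and Sntb1 were called in 16, and the 2 alternatives without the vector arrays called no gene. A fit of every probe set on the array, which is not among the 18, also called 0.

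The vector arrays give a level to set beside each time, although the contrasts share arrays and are not independent. Against vector, 1.86% of tested genes were called at 2 h and 5.78% at 6 h. Among the 45 genes that rose, the vector mean lay between the means of the times in 34, above both in 1 and below both in 10. Among the 63 that fell, it lay between them in 26, above both in 35 and below both in 2, and it was nearer the 2 h mean in 59. Among the rises, the vector mean was nearer the 6 h mean in 20 and nearer the 2 h mean in 25.

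Low-oxygen targets are genes that the factors HIF-1 and HIF-2 switch on through the core ACGTG when oxygen or the enzymes that degrade HIF run low. They cover oxygen-sparing metabolism, mitochondrial turnover and collagen and secretory protein processing. Of the 12 called genes of this list and the glycolysis list, 10 had a RefSeq promoter window, and 7 of those held ACGTG while Gys1, Pfkp and Ccng2 did not. The 150 bases before the RefSeq start (GRCm38.p6) are shown for the 6 with a match in that stretch. Capitals mark ACGTG or its reverse complement, CACGT. The Bnip3 stretch lies at chr7:138909507-138909656 on the minus strand, Ankrd37 at chr8:45999851-46000000 on the minus strand and Ero1a at chr14:45318573-45318722 on the minus strand. The P4ha1 stretch lies at chr10:59323146-59323295 on the plus strand, Slc2a1 at chr4:119108595-119108744 on the plus strand and Hk2 at chr6:82774455-82774604 on the minus strand.
Bnip3: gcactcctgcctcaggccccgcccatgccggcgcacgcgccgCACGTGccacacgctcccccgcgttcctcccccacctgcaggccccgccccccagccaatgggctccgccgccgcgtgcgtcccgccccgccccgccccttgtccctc
Ankrd37: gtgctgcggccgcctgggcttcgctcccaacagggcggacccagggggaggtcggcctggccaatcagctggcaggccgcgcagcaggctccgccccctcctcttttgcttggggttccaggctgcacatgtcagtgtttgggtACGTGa
Ero1a: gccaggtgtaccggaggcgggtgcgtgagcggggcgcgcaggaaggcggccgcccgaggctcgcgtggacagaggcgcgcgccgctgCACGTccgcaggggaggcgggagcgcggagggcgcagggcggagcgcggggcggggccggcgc
P4ha1: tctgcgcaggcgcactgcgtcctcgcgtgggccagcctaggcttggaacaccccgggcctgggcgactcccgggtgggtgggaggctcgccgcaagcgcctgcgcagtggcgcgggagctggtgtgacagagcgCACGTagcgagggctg
Slc2a1: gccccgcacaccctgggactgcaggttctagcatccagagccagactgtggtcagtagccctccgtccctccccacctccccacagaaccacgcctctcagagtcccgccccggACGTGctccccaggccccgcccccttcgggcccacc
Hk2: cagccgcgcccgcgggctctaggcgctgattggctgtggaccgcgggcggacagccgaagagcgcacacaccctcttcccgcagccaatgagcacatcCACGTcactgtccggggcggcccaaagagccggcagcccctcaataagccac
Sequences run 5′ to 3′ on the strand of the gene. In Bnip3 the match is part of CACGTG, the E-box of Myc and Max, which contains ACGTG, and it lies 108 bases before the start. A promoter window of 250 bases before to 50 after the start, searched on both strands, held ACGTG in 20 of 30 low-oxygen genes with a window (66.7%) and 14 of 19 glycolysis genes (73.7%). Among all tested genes with a window the share was 28.9%, and among all genes with a window 21.8%. A gene with several windows has more places for a match. Counted by window, the shares were 47.9% for low-oxygen and 57.1% for glycolysis genes. By that count they were 25.3% for tested genes and 19.6% over all 32851 windows. Such a match describes letters only, and many of these genes entered the list because they are known targets. Of the genes called higher, 15 of 34 with a window held it, 44.1%, and of those called lower, 13 of 51, 25.5%. The 34 include the 10 called low-oxygen and glycolysis genes with a window, of which 7 held it. The 44.1% is therefore not independent of those lists.

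Of 44 low-oxygen targets, 35 were tested, and 31 had a positive change against 4 negative, beside 52.9% positive among all tested genes. The median change was 0.21, and 17 members, 48.6% beside 7.9% of all genes, had all 6 h arrays above all 2 h arrays. The test called 7 of them, all higher, which are 20% of those tested beside 0.376% of all genes. The ER oxidase Ero1a, which reoxidises protein disulfide isomerase, read 9.43, 9.37 and 10.17 at 2 h and 10.48, 11.43 and 11.49 at 6 h, a rise of 1.47 ± 0.26 (2.78-fold, adjusted p = 0.03). The 6 h arrays lay above the 2 h arrays, though 6 h replicate 1 was close to the highest 2 h value. Bnip3, a mitophagy receptor, read 8.52, 8.98 and 9.27 at 2 h and 9.96, 10.58 and 10.52 at 6 h (1.43 ± 0.19, 2.7-fold, adjusted p = 0.0158). A second Bnip3 probe set gave a change of 1.23.

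Ankrd37, an ankyrin-repeat gene known to respond to low oxygen, rose by 1.03 ± 0.16, from a mean of 6.94 ± 0.15 to 7.97 ± 0.37 (SD, n = 3). The repressor Bhlhe40 rose by 0.90 ± 0.13, the collagen prolyl hydroxylase subunit P4ha1 by 0.53 ± 0.09 and the glycogen synthase Gys1 by 0.58 ± 0.07. In these genes and in Ero1a and Bnip3, the 2 h mean was below the vector mean and the 6 h mean was at most 0.37 above it. Bnip3 was 1.34 lower than vector at 2 h (adjusted p = 0.0065) and 0.09 higher at 6 h (adjusted p = 0.89). Gys1 was 0.47 lower at 2 h (adjusted p = 0.0081) and 0.11 higher at 6 h (adjusted p = 0.501). Ccng2, a cyclin of the G type and also a target of Foxo factors, started at the vector level. It read 7.79, 7.95 and 7.77 at 2 h against 7.94, 7.73 and 7.88 in vector arrays, and rose to 8.46, 8.86 and 8.54 at 6 h.

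Of the members that were not called, the Bnip3 relative Bnip3l had a change of 0.58 ± 0.13 (adjusted p = 0.067) and the histone demethylase Kdm3a 0.38 ± 0.08 (adjusted p = 0.061). The stress gene Ddit4 had 0.55 ± 0.17 (adjusted p = 0.167) and Vegfa, the endothelial growth factor, 0.19 ± 0.11 (adjusted p = 0.492). The arrays of Vegfa, Hilpda, Car9 and Hmox1 overlapped between the times. Among 9 tested genes for HIF subunits and oxygen sensors, limma called 0, with 3 higher and 0 lower at an unadjusted p under 0.05, a level that 13.6% of all tested genes passed (6.75% higher, 6.86% lower). The prolyl hydroxylase Egln1 had a change of 0.29 ± 0.08 (adjusted p = 0.128) and Cited2, which competes with HIF for its coactivator, 0.35 ± 0.10 (adjusted p = 0.139).

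Among glycolysis genes, changes went mostly upward. Of 25 listed, 20 were tested, 16 with a positive change, and the median was 0.26. The test called 5, all higher, which is 25% of those tested beside 0.376% of all genes. Relative to each gene's mean over 9 arrays, the members' median was -0.30, -0.16 and -0.04 at 2 h and -0.05, 0.13 and 0.23 at 6 h, so the times overlapped, with 2 h replicate 1 lowest. The called genes were the glucose transporters Slc2a1 and Slc2a3, hexokinase 2 (Hk2), the phosphofructokinase Pfkp and phosphoglucomutase (Pgm1). Slc2a1 read 9.16, 9.56 and 8.92 at 2 h and 10.20, 10.54 and 10.60 at 6 h, a 2.36-fold rise (1.24 ± 0.15, adjusted p = 0.00896), with vector arrays at 10.24 to 10.35. Hk2 rose by 0.83 ± 0.12, Pgm1 by 0.60 ± 0.10, Pfkp by 0.59 ± 0.10 and Slc2a3 by 0.47 ± 0.09.
The called genes take up, phosphorylate or interconvert glucose sugars. Later enzymes were not called, with changes such as 0.40 ± 0.12 for aldolase Aldoa, 0.34 ± 0.13 for Pgk1 and 0.22 ± 0.09 for Ldha. Relatives of the called enzymes at the early steps were not called either, with -0.04 for Hk1, -0.02 for Pfkm, 0.23 for Pfkl and 0.01 for Pgm2. The lactate exporter Slc16a3 had 1.27 ± 0.35 (adjusted p = 0.129), with 2 h replicate 1 at 6.70 and the other 2 h arrays at 8.33 and 7.99. Slc16a1, another carrier of lactate, had -0.27 ± 0.11.

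**Figure D1:**
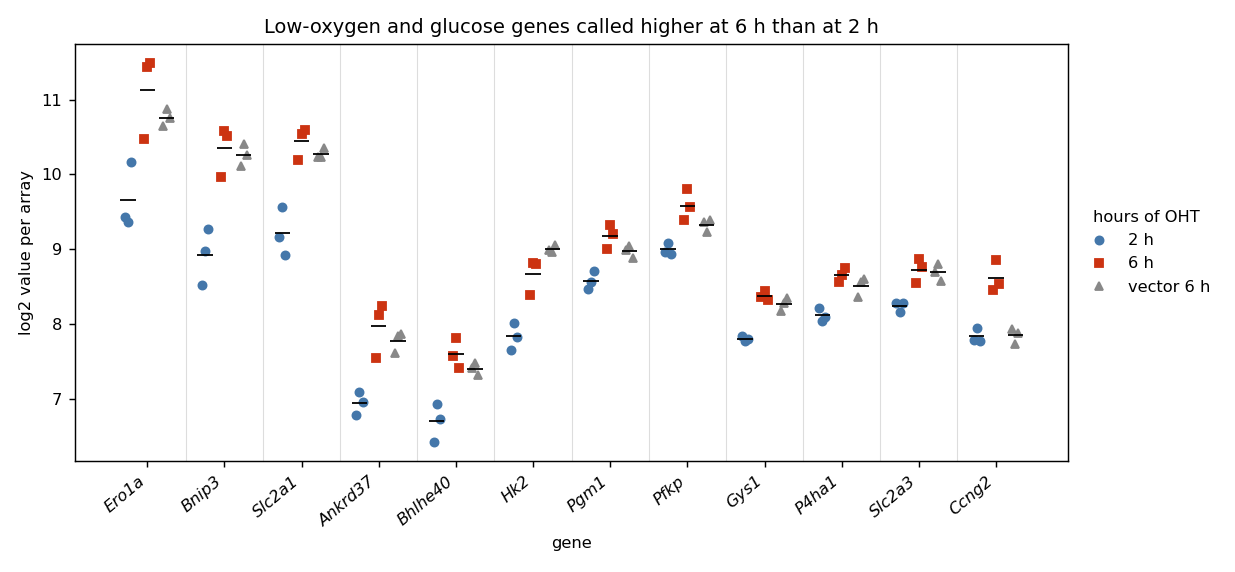
Log2 values on each array for the 12 called low-oxygen and glucose genes, with 2 h (circles), 6 h (squares) and vector 6 h (triangles) arrays and group means as bars. The 2 h arrays lie below the 6 h arrays for every gene, and Ccng2 is the gene whose vector arrays sit at its 2 h level.

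Cholesterol and fatty acid synthesis genes shifted upward in small steps. Of 34 listed, 30 were tested, 28 with a positive change, and the median was 0.31. In 16 of the 30 the 6 h arrays lay wholly above the 2 h arrays, 53.3% beside 7.9% of all genes. The test called 2, both higher (6.67% beside 0.376%). Hmgcs1, which makes HMG-CoA at the start of the pathway, read 10.55, 10.44 and 10.82 at 2 h and 11.10, 11.45 and 11.29 at 6 h (0.68 ± 0.12, adjusted p = 0.0282). Dhcr7, the last step of cholesterol synthesis, rose by 0.47 ± 0.08. Lanosterol synthase Lss (0.75 ± 0.16, adjusted p = 0.0697), Nsdhl (0.35 ± 0.08, adjusted p = 0.0655) and the sterol-sensing factor gene Srebf2 (0.34 ± 0.08, adjusted p = 0.0779) had positive changes but were not called. The fatty acid elongase Elovl6 went the other way, at -0.41 ± 0.09 (adjusted p = 0.0647). Erg28, a scaffold protein of sterol synthesis that was not on the list, rose by 0.50 ± 0.07 (adjusted p = 0.0176).

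Rises outside these lists were varied. Slc43a2 was the 1 called gene of 16 tested amino acid transporters (6.25% beside 0.376% of all genes) and had the smallest p among the rises. It read 6.09, 6.16 and 6.13 at 2 h and 6.95, 7.06 and 6.79 at 6 h, with vector arrays at 6.48 to 6.53 (0.81 ± 0.08, adjusted p = 0.00282). The urea transporter Slc14a1 rose by 0.76 ± 0.14, the long noncoding RNA Dubr by 0.78 ± 0.15 and the autophagy gene Trp53inp2 by 0.58 ± 0.08. Dubr, Trp53inp2, the retinoblastoma gene Rb1 (0.48 ± 0.09), the ubiquitin-conjugating enzyme Ube2h (0.52 ± 0.09) and the lysosomal transporter Slc46a3 (0.51 ± 0.09) were within 0.22 of the vector mean at 2 h and above it at 6 h by 0.48 to 0.82. Lncpint, another noncoding RNA, was below vector at 2 h by 0.52 and reached it at 6 h. Dok3, an adaptor that dampens B-cell receptor signals, rose by 0.56 ± 0.08.

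Ribosome assembly genes lay lower at 6 h. Making a ribosome needs RNA polymerase I to copy ribosomal DNA, small nucleolar ribonucleoproteins (snoRNPs) to modify the RNA, and large sets of factors that process and fold the small and the large subunit. Of 101 genes on 4 lists, 98 were tested, and 97 had a negative change, beside 47% of all tested genes. The median was -0.27, and in 61 every 6 h array lay below every 2 h array, 62.2% beside 6.91% of all genes. The test called 15, all lower, 15.3% of those tested beside 0.527%, on lists chosen with earlier results of these data known. Over 18 alternatives the list median lay between -0.33 and -0.23. Relative to each gene's mean over 9 arrays, the members' median was 0.03 to 0.11 on the 2 h arrays, 0.05 to 0.21 on the vector arrays and -0.31 to -0.10 on the 6 h arrays.

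**Figure D2:**
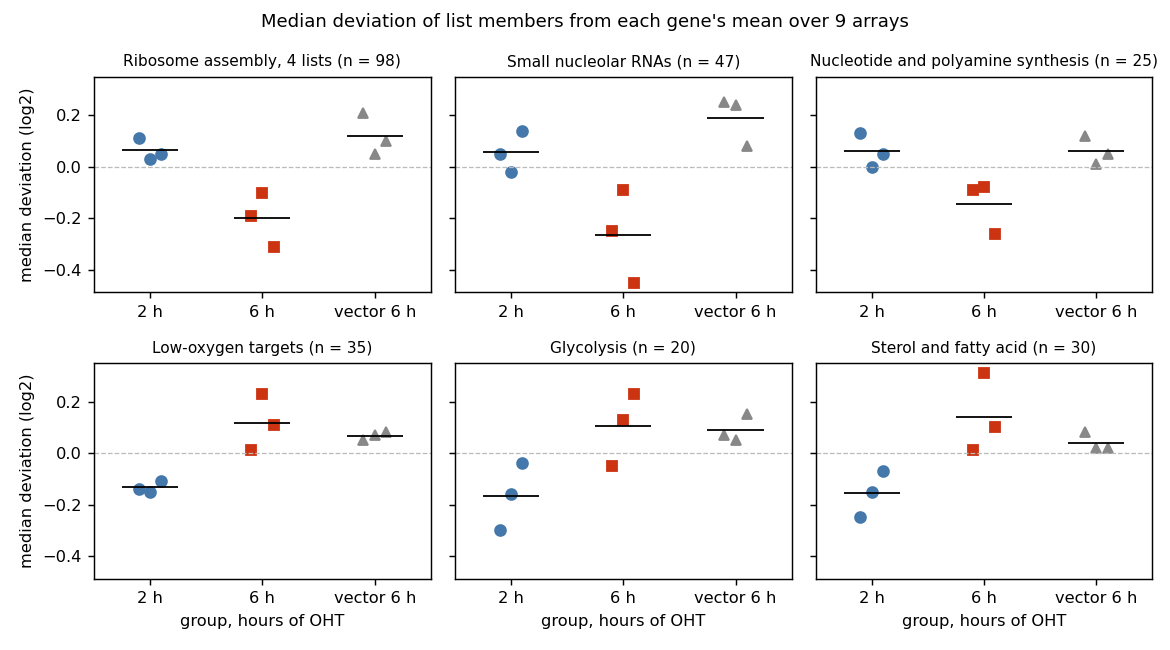
Median deviation of each list's tested members from the gene's mean over 9 arrays, in log2 units, for every array, with group means as bars. Ribosome assembly, small nucleolar RNA and nucleotide genes are lowest on the 6 h arrays, while low-oxygen and sterol genes are lowest on the 2 h arrays. Glycolysis medians overlap, with the lowest 6 h array at -0.05 and the highest 2 h array at -0.04.

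Within the polymerase list, 2 of 14 (14.3% beside 0.527% of all genes) were called, Polr1b, the second largest subunit of RNA polymerase I (-0.43 ± 0.08), and Nolc1, a nucleolar phosphoprotein (-0.46 ± 0.09). Polr1b read 8.47, 8.26 and 8.56 at 2 h, 7.96, 7.99 and 8.06 at 6 h and 8.98 to 9.07 on the vector arrays, so it was already lower than vector at 2 h by 0.60 (adjusted p = 0.00486). Of the 10 snoRNP proteins, 3 were called (30% beside 0.527%). They were Dkc1, the pseudouridine synthase of H/ACA particles (-0.61 ± 0.11), its partner Nhp2 (-0.52 ± 0.10) and Nop58, a core C/D protein (-0.49 ± 0.10). At 2 h these 3 differed from vector by -0.07, 0.15 and 0.06, none of them called.

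The small subunit list had 3 called members of 34 (8.82% beside 0.527% of all genes), Utp4 (-0.53 ± 0.09), Wdr43 (-0.49 ± 0.08) and the RNA acetyltransferase Nat10 (-0.46 ± 0.07), and all 34 had a negative change. The large subunit list had 7 of 40 (17.5%), and all 40 were negative. Rrs1, a factor that carries 5S RNA into the particle, read 8.52, 8.25 and 8.33 at 2 h, 7.45, 7.86 and 7.35 at 6 h and 8.31 to 8.49 on the vector arrays (-0.82 ± 0.13, adjusted p = 0.0213). The nucleolar GTPase Gnl3 fell by 0.64 on the log2 scale and Grwd1 and Nifk by 0.58 each. Nop16, Pwp1 and Lyar fell by 0.47, 0.37 and 0.36. The large subunit genes had a median of -0.31, the snoRNP proteins -0.31, the small subunit genes -0.26 and the polymerase genes -0.18.

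Small nucleolar RNAs, which guide the modifications and are mostly cut from introns, had a median of -0.34 over 47 tested of 54. Of these, 37 were negative and 10 positive, while 47% of all tested genes were negative. Snord52 (-0.76 ± 0.15, adjusted p = 0.0408), Snora70 (-0.67 ± 0.12, adjusted p = 0.037) and Snora33 (-0.44 ± 0.09) were called. They are 6.38% of those tested, beside 0.527% of all genes called lower. Snord52 read 7.12, 6.61 and 6.83 at 2 h and 6.14, 6.32 and 5.80 at 6 h. A probe set in an intron can also read the host transcript, and that was not tested. Also lower were the pseudouridine synthase Pus7 (-0.53 ± 0.09, with its other probe sets at -0.43 and -0.41), the tRNA methyltransferase Trmt61a (-0.51 ± 0.08), the snoRNA host Snhg16 (-0.43 ± 0.08) and Larp1, which binds mRNAs of ribosomal proteins (-0.36 ± 0.06). A second Larp1 probe set gave a change of -0.24. CACGTG was found in 17 of 83 ribosome assembly genes with a window, 20.5% beside 11.6% of tested genes.
Of 57 tested mRNAs of the cytosolic ribosomal proteins themselves, 49 had a small negative change, and the median was -0.08. Of these 57, limma called 0, with 0 higher and 4 lower at an unadjusted p under 0.05, beside 6.86% of all genes lower. Among 77 mitochondrial ribosomal proteins, Mrpl42 (-0.74 ± 0.15) and Mrpl24 (-0.43 ± 0.07) were called (2.6% beside 0.527%), with a median of -0.13. Of the 77, 66 were negative, and 22 were lower and 2 higher at an unadjusted p under 0.05. In 21 (27.3% beside 6.91% of all genes) every 6 h array lay below every 2 h array.

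Enzymes of nucleotide and polyamine synthesis had mostly negative changes as well. All 25 listed genes on the array were tested, of 28 on the list, and 23 were negative with a median of -0.23. In 14 (56% beside 6.91% of all genes) every 6 h array lay below every 2 h array, and 2 (8% beside 0.527%) were called, both lower. Purine nucleoside phosphorylase Pnp, which breaks down purine nucleosides, read 11.40, 11.34 and 11.20 at 2 h, 10.26, 10.43 and 10.04 at 6 h and 11.51 to 11.88 in vector cells (-1.07 ± 0.12, 2.1-fold lower, adjusted p = 0.00529). A closely related neighbouring gene may be read by the same probes. Shmt1, which loads folate with 1-carbon units, fell by 0.46 on the log2 scale. Spermidine synthase Srm had -0.50 ± 0.11 (adjusted p = 0.0697) and the purine enzyme Atic -0.36 ± 0.08 (adjusted p = 0.0662).

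**Figure D3:**
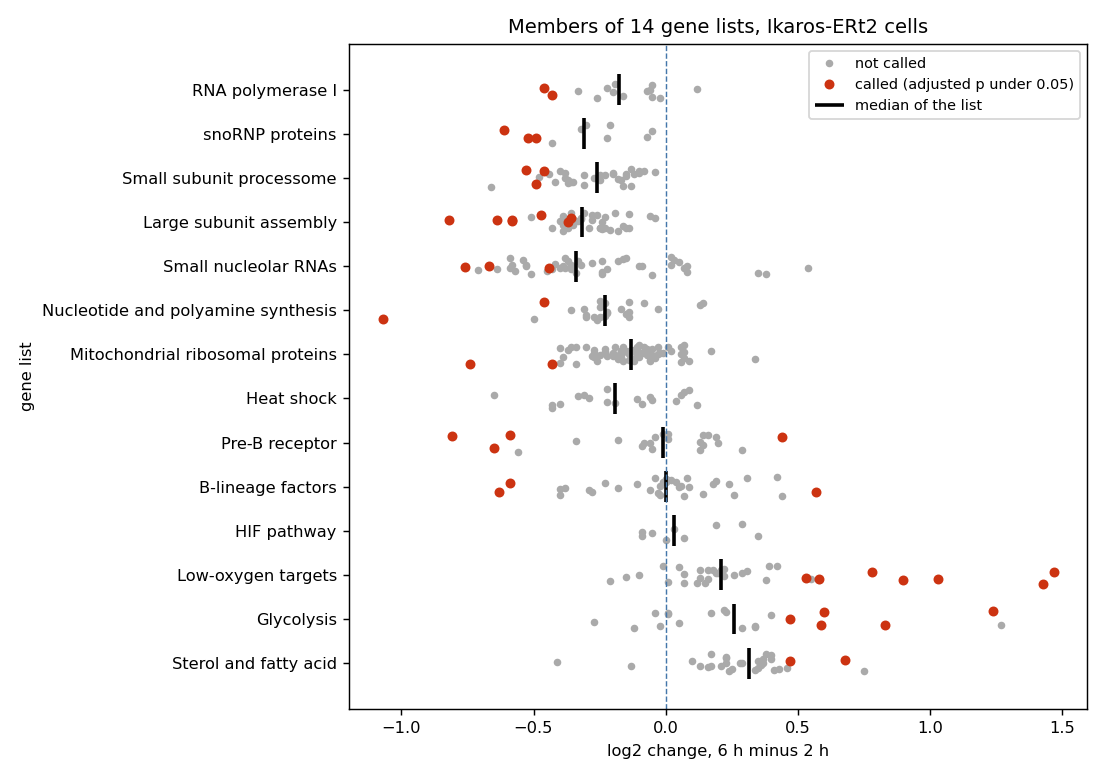
Log2 change at 6 h minus 2 h for the tested members of 14 lists, each point a gene, called genes in red and the list median as a bar. Ribosome assembly, small nucleolar RNA and nucleotide lists have medians left of 0, low-oxygen, glycolysis and sterol lists right of it, and the pre-B receptor and B-lineage lists spread to both sides.

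The T-box factor Tbx19 had the largest fall. It read 8.78, 8.36 and 8.38 at 2 h and 7.18, 7.01 and 6.68 at 6 h (-1.55 ± 0.14, 2.92-fold lower, adjusted p = 0.00282). Its vector arrays lay between, at 7.57 to 7.75, so Tbx19 was higher than vector at 2 h by 0.86 (adjusted p = 0.0107) and lower at 6 h by 0.68. Sox4, a factor of early B-cell development, and the reductase Ptgr1 were likewise above vector at 2 h, by 0.75 and 0.62, and fell to it at 6 h. Enpp6, a choline phosphodiesterase, fell from 7.29, 7.30 and 7.56 to 6.32, 6.42 and 6.20 (-1.07 ± 0.11, adjusted p = 0.00287). Endod1, an endonuclease-domain gene, read 8.86, 8.37 and 8.74 at 2 h and 7.64, 7.81 and 7.62 at 6 h (-0.96 ± 0.11), and its vector arrays were highest, at 9.56 to 9.63.
The remaining large falls were Csgalnact1, an enzyme of chondroitin sulfate synthesis (-0.92 ± 0.14), Plcl1 (-0.84 ± 0.15), the syntrophin Sntb1 (-0.76 ± 0.10), Ankrd45 (-0.71 ± 0.12), the cyclophilin Ppid (-0.70 ± 0.11) and the secreted serpin Serpinf1 (-0.67 ± 0.09).

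**Figure D4:**
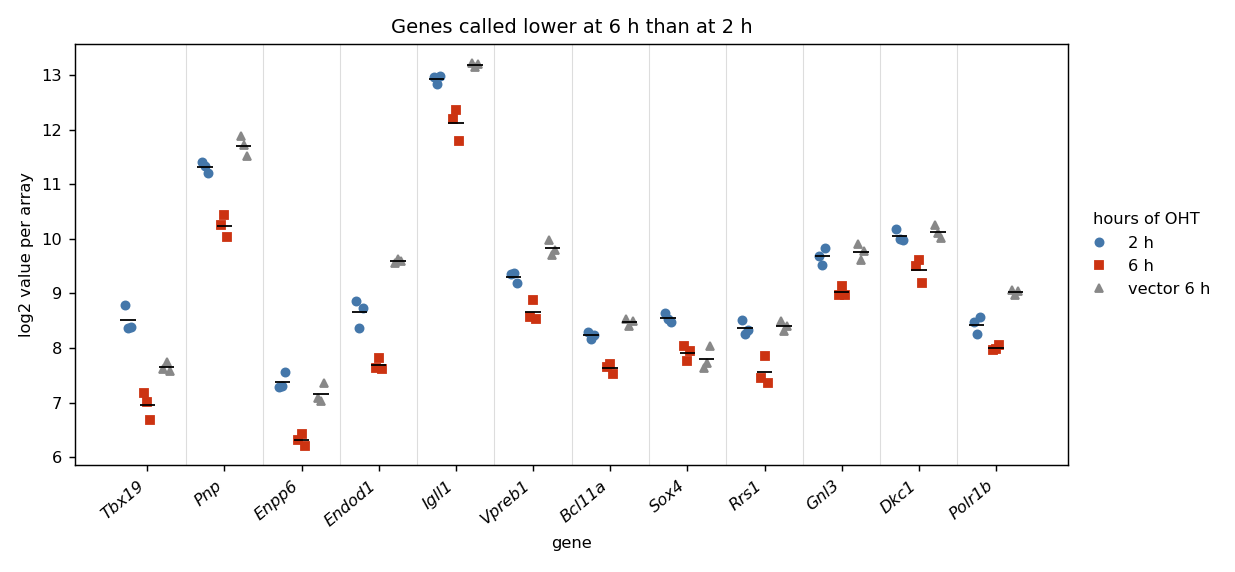
Log2 values on each array for 12 genes called lower at 6 h, with 2 h (circles), 6 h (squares) and vector 6 h (triangles) arrays and group means as bars. The 6 h arrays lie below the 2 h arrays in every gene, Tbx19 and Sox4 are higher at 2 h than in vector cells, and Endod1 is highest in vector cells.

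The pre-B receptor pairs a heavy chain with the surrogate light chain, made of Igll1 and a VpreB protein, and signals through Cd79a and Cd79b. Of 23 tested genes of this receptor and its signalling, 11 had a positive and 12 a negative change, and 4 were called, 17.4% beside 0.903% of all genes. Igll1 fell from 12.97, 12.83 and 12.98 to 12.19, 12.37 and 11.80, with vector arrays at 13.15 to 13.22 (-0.81 ± 0.12, adjusted p = 0.0183). Vpreb1 fell by 0.65 and Vpreb2 by 0.59 on the log2 scale, and these nearly identical genes may share probes. At 2 h, Vpreb1 was already lower than vector by 0.52 (adjusted p = 0.0389), and Igll1 by 0.26 (adjusted p = 0.368). The signalling chain Cd79b rose by 0.44 ± 0.08, while Cd79a had -0.04 ± 0.08. The list as a whole had a median of -0.01.

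Of 35 tested B-lineage factors, 18 had a positive and 17 a negative change, with a median of 0.00, and 3 were called, 8.57% beside 0.903% of all genes. Ebf1, which commits cells to the B lineage, read 9.72, 9.43 and 9.74 at 2 h and 10.16, 10.11 and 10.35 at 6 h (0.57 ± 0.11, adjusted p = 0.0375). Bcl11a fell by 0.59 (adjusted p = 0.00947) and Sox4 by 0.63 (adjusted p = 0.03). Uncalled factors went both ways. Spi1, the gene of PU.1, had 0.42 ± 0.10 (adjusted p = 0.0815), Rela 0.31 ± 0.09 and Stat5b 0.24 ± 0.07, while Myb, Lef1 and Lmo2 had -0.40, -0.40 and -0.38, and Pax5 had 0.01 ± 0.07. TGGGAA, a core of Ikaros sites, lay in the window of 22 of 51 genes called lower (43.1%) and 7 of 34 called higher (20.6%), beside 25.8% of tested genes.

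Myc, a factor known to drive ribosome assembly genes, read 9.17, 9.15 and 9.66 at 2 h and 9.02, 9.15 and 9.40 at 6 h (-0.14 ± 0.15, adjusted p = 0.765), with vector arrays at 10.56 to 10.84. Its values overlapped, and it was lower than vector by 1.32 at 2 h and by 1.46 at 6 h. Of 26 tested genes of the Myc network and the cyclins, Rb1 was the 1 called, and it was higher (3.85% beside 0.376% of all genes). Ccnd2, a cyclin of early cell cycle entry, had -0.72 (adjusted p = 0.265).

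Averaged over the genes of each marker list, T-cell markers read 4.90 to 5.03 on the Ikaros-ERt2 arrays, myeloid markers 4.32 to 4.43, fibroblast markers 5.51 to 5.74 and plasma cell markers 5.91 to 6.02. Single markers in these lists were bright. The intermediate filament gene Vim, which many blood cells also express, read 10.55, 10.12 and 10.22 at 2 h and 9.97, 10.09 and 9.83 at 6 h (-0.33, adjusted p = 0.333), and at 2 h it was 0.84 above vector (adjusted p = 0.0132). The plasma cell list holds Mzb1, at 10.04 to 10.48, and Xbp1, at 8.76 to 9.15 on these arrays. The fibroblast markers Dcn and Lum read at most 4.02 and 3.55, and the plasma cell markers Prdm1 and Jchain at most 3.87 and 4.11. Between the times, limma called 0 of 5 tested T-cell, 1 myeloid, 8 fibroblast and 4 plasma cell markers, beside 0.903% of all genes. With so few members, 0 calls cannot show that a list was unchanged. At an unadjusted p under 0.05, 1 fibroblast marker was higher and 1 lower, and so were 1 and 1 plasma cell markers. Of all tested genes, 13.6% passed that level. B-lineage markers read 9.26 to 9.41 on the same arrays and 9.47 to 9.56 on the vector arrays. That list holds dim members too, since Cd22 read at most 4.93 and Rag1 at most 4.28, and neither was tested. Of 11 tested B-lineage markers, limma called 2 higher at 6 h and 2 lower, 36.4% beside 0.903% of all genes. Cd79b and Ebf1 were higher, and Igll1 and Vpreb1 were lower. Each is already counted above in the pre-B receptor or the B-lineage factor list, so this share is not a separate result.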

How the data were processed

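Total RNA of 9 samples was measured on Affymetrix Mouse Gene 1.0 ST arrays. The authors deposited normalized log2 values, 1 per probe set and array. Per the submitters' processing notes, GCRMA, RMA, affy and limma were used, with no version and no role. Per the labels' protocols, RNA for this array was amplified and labelled with Affymetrix whole-transcript kits.

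Gene names came from the array's platform annotation, and 21698 of 21789 with 1 symbol matched a RefSeq gene number. Several symbols were listed for 1621 probe sets and none for 12146. The brightest probe set stood for each of 999 genes with several. Genes in the lowest 40% by mean over 9 arrays (a mean log2 value below 5.10) were not tested. limma 3.58.1 in R 4.3.3 (lmFit, eBayes, two-sided) was fitted to all 9 arrays, and p-values were Benjamini-Hochberg adjusted over all 11963 genes, with 0.05 as the threshold. Errors after a log2 change are standard errors, and folds are 2 to the power of the change. The fit was also run on simulated data with 200 changed genes, a check of the code and not of these calls.

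Gene lists were described by counts and medians, with no set test. Members and lists were chosen with earlier results of these data known. Any called gene could be named, the 15 largest rises and falls were given with values, every called list member was named, and where none was called the 2 members with the smallest p. Ikzf1 and Myc were always named. Other uncalled genes were chosen after their values were seen. The ribosomal protein list was narrowed after the data were seen, because its name pattern took in kinases. Alternatives covered the filter, normalization, probe-set rule, variance model, replicate block, arrays used and each array left out. Promoter sequences are from RefSeq. The number of arrays limits the precision, and array values give no read depth.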

Additional observations from a re-analysis of the deposited data

How the results depend on the processing

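The count of called genes, 108 in the fit reported, depended on the setting. Quantile normalization again gave 150 and the 60% filter 140, a trended and robust variance 114, and the mean over probe sets 106. It was 59 with no filter (19938 genes tested) and 61 with arrays centred on their medians. Testing every probe set gave 0 (2978 at an unadjusted p under 0.05), and only the 6 Ikaros-ERt2 arrays gave 0 (1301). Leaving out 1 array gave 9 to 149. Without 2 h replicates 1, 2 and 3 it was 9, 44 and 15, without 6 h replicates 26, 149 and 38, and without vector replicates 32, 31 and 50. Of the 149, 20.8% were higher at 6 h, beside 41.7% in the fit reported. The cause of these differences was not tested.

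The replicate numbers were not taken as pairs, since not every same-numbered pair of arrays had deviations correlated above 0.1. For numbers 1, 2 and 3 the correlations were 0.244, -0.258 and -0.17 between 2 h and 6 h arrays, 0.119, 0.128 and 0.235 between 2 h and vector arrays and -0.004, -0.096 and 0.106 between 6 h and vector arrays. With the replicate number as a block, the 9 arrays gave 125 calls, 82 of them among the 108, and the 6 arrays gave 0 (1142 at an unadjusted p under 0.05).

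The 108 genes kept their direction in all 18 alternatives, most of which could not reverse it, since the arrays of the times did not overlap in these genes. List medians stayed within 0.17 to 0.37 for glycolysis, 0.17 to 0.26 for low-oxygen targets, 0.22 to 0.35 for sterol and fatty acid genes, -0.33 to -0.23 for ribosome assembly and -0.46 to -0.22 for small nucleolar RNAs. Among uncalled genes, leaving out 1 array moved Ikzf1 between -0.05 and 0.04 (adjusted p = 0.937 at 0.04, without 2 h replicate 1) and Myc between -0.24 and 0.03 (adjusted p = 0.95 at 0.03, without 2 h replicate 3).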

Other observations

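By limma, the lists that follow had 0 called members between 6 h and 2 h. Counts at an unadjusted p under 0.05 stand beside 13.6% of all tested genes at that p, 6.75% higher and 6.86% lower. Of 19 tested heat-shock genes, 14 had a negative change, with a median of -0.19, and 9 (all lower) had an unadjusted p under 0.05. That median was -0.08 without 2 h replicate 1, where the members' median deviation was 0.23 beside 0.06 and 0.02 on the other 2 h arrays. The chaperone Hsph1 had -0.65 ± 0.14 (limma, adjusted p = 0.0552) and the Hsp90 cochaperone Ahsa1 -0.40 ± 0.10 (adjusted p = 0.0895). Hsph1 was 0.89 above vector at 2 h (adjusted p = 0.00808) and 0.24 above it at 6 h (adjusted p = 0.435). Of 18 tRNA synthetases, 16 were negative with a median of -0.12, 3 lower and 1 higher at an unadjusted p under 0.05, and Tars had -0.35 and Cars -0.24. Of 77 respiratory chain genes, 59 were negative with a median of -0.07, 5 lower and 2 higher at that p, and the complex I subunits Ndufs5 and Ndufb3 had -0.46 and -0.30. The cytosolic ribosomal protein genes with the smallest p were Rpl22 (-0.25) and Rpl10l (-0.36).

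At an unadjusted p under 0.05, 3 of 41 S-phase genes were lower and 0 higher, and 1 of 31 mitosis genes was higher. Counting both directions, both shares were below the 13.6% of all genes. By direction, 6.86% of all genes were lower, near the S-phase share, and 6.75% higher. The 41 S-phase genes had a median of -0.06, with Gins1 at -0.29 and Rpa2 at -0.22, and the 31 mitosis genes had 0.05, with Cdc25b at 0.28 and Cdk1 at -0.15. Of 18 p53 targets, 3 were lower and 1 higher at that p, and Aen had -0.41 (adjusted p = 0.0714) and Sesn2 -0.26. Of 32 immediate early genes, 3 were higher and 2 lower at that p, with Dusp7, an Erk phosphatase, at -0.53 (adjusted p = 0.119) and Spred1 at 0.30. The interleukin-7 receptor gene Il7r had -0.50 (adjusted p = 0.175) and Pim3 -0.18. The stress factor Atf3 had 0.58 (adjusted p = 0.139) and Dnajc3 0.29. Recombination genes Xrcc6 and Hmgb1 had -0.21 and -0.38, interferon genes Ifi35 and Irf9 -0.24 and 0.16, lysosome genes Ulk2 and Npc1 0.17 and 0.26, and housekeeping genes Sdha and Pgk1 -0.19 and 0.34. At an unadjusted p under 0.05, these lists had 0 higher and 2 lower members for interleukin-7 and survival genes, 3 and 4 for the ER stress list that holds Atf3, and 0 and 2 for recombination. The same counts were 1 and 1 for interferon, 3 and 0 for lysosome and 1 and 0 for housekeeping genes.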
